A study of Mus musculus with 20 samples.

Results

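The 10 genes described here carry the insulin signal or make glucose: the insulin receptor gene Insr, the adaptor genes Irs1 and Irs2, the kinase subunit gene Pik3r1, the transcription factor genes Foxo1 and Foxo3, and the gluconeogenic enzyme genes Pck1, Pck2, G6pc and Fbp1. They were found by symbol in 2 tables of kidney RNA counts, 10 of 26608 named genes in one and 10 of 30809 in the other, and all 10 passed the low-count filter in both (14978 and 16956 genes tested). The set was put together around Irs2, which was picked because it was lower in the first comparison below, so the members' values in that comparison are a description. No p is given for a member there, and counts of members called are printed beside the share of all genes called and support nothing. The second comparison played no part in that choice and is tested.

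All kidneys were those of aged mice with transplanted marrow. In the first table, 6 Control kidneys (animals 3, 11, 12, 13, 16 and 17) stood against 6 kidneys of mice with LOY, loss of the Y chromosome in blood-forming cells (animals 5, 8, 9, 10, 14 and 18). In the second, all mice had LOY marrow, and 4 kidneys of mice given a control compound (animals 6, 8, 9 and 10) stood against 4 of mice given ABT263 (animals 15, 16, 17 and 18), also written ABT-263 or navitoclax, an inhibitor of BCL-2 family survival proteins used to remove senescent cells. The sources used here give no strain, age in months, dose, treatment time, feeding state or way of making the LOY marrow. LOY names a change in the transplanted blood-forming cells, whereas the RNA measured was that of whole kidney. Some animal numbers occur in both tables. Numbers 16 and 17 are Control mice in the first and mice with LOY marrow in the second, so they mark different animals. Whether the other shared numbers mark the same animals was not given.

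Insulin binding to its receptor leads to phosphorylation of the insulin receptor substrates IRS1 and IRS2, which recruit phosphoinositide 3-kinase and so activate AKT. AKT in turn keeps FOXO factors out of the nucleus, where they would otherwise favour genes of glucose output such as Pck1 and G6pc, as well as Irs2 and Insr themselves. The proximal tubule of the kidney makes glucose, and its Pck1 also serves ammonia formation and responds to acid load.

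Promoter stretches of 4 members are shown because Irs1 and Irs2 are alternative adaptors that differed in the size of their change, and Pck1 and G6pc are classical targets of the pathway whose values went in opposite directions. RefSeq start sites (GRCm38.p6) were available for 9 of the 10 members. The stretches are the 250 bases before the RefSeq start. Those of Pck1 and G6pc are shorter, since they end where the GENCODE M21 gene begins, and those of Irs2 and Irs1 lie wholly before it. Capitals mark matches to CAAAACA, the core of the insulin response sequence (read as TGTTTTG on the other strand), and to TGACG, the cyclic AMP response half-site (read as CGTCA). The stretches are from Irs2 at chr8:11008930-11009179 (minus strand), Irs1 at chr1:82291440-82291689 (minus strand), Pck1 at chr2:173152823-173153047 (plus strand) and G6pc at chr11:101367466-101367560 (plus strand), each written 5′ to 3′ on the gene's strand.
Irs2: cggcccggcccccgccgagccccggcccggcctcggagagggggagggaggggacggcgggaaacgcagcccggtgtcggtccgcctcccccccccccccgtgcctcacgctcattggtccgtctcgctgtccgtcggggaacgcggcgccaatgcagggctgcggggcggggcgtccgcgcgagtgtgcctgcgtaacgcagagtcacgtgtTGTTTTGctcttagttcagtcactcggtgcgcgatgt
Irs1: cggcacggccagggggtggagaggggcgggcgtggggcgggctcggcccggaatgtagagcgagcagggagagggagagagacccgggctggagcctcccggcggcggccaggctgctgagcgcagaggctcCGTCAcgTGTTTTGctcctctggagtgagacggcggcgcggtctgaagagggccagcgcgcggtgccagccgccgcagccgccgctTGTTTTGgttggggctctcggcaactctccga
Pck1: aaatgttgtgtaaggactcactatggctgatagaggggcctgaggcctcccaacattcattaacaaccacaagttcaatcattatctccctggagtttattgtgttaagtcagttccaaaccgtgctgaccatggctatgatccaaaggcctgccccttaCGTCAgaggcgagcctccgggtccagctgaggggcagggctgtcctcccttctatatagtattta
G6pc: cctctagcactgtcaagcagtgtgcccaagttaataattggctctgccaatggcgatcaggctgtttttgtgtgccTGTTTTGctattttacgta

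Over the 250 bases before each start and on both strands, CAAAACA occurred once before Irs2, 2 times before Irs1, once before G6pc and once before Pck2. TGACG occurred once each before Irs1, Pck1 and Foxo3 and before the second of 2 Pik3r1 starts. CAAAACA was present in 5.56% and TGACG in 17.8% of 32851 promoters of the same length. The consensus FOXO site GTAAACA (3.17% of promoters) and the full cyclic AMP response element TGACGTCA (1.55%, each also counted under TGACG) were found before none of the 9 members. The promoters of Irs1 and Irs2 were alike in base composition, with 72.4% and 72.8% G or C, against 50.8% before Pck1 and 43.2% before G6pc. These matches describe the letters of the windows, and binding was not measured.

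Depth was 13332563 to 19386408 counts per kidney in the first table and 14587809 to 20791633 in the second. The 2 tables were tested apart, since each was counted over its own set of genes. In CPM, a gene's count relative to the library's TMM-scaled total, Irs2 averaged 6.18 in the LOY kidneys of the first table and 41.6 in the LOY kidneys with the control compound of the second, a gap between tables whose cause was not tested. Levels are therefore compared only within a table. Whole kidney was measured, so fewer cells of a type and less RNA per cell cannot be told apart. One library stands for 1 animal, and the SDs and tests measure the spread between animals.

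Irs2, the adaptor gene at chr8:10984681-11008458 (GRCm38, minus strand), was the member with the lowest LOY to Control ratio. Control kidneys had 8.94 to 17.6 CPM with a median of 14.5, from 121 to 241 counts each. LOY kidneys had 4.68 to 9.71 CPM with a median of 5.49, from 64 to 200 counts each. Of the 6 LOY kidneys, 5 lay below every Control kidney, and the exception was LOY animal 18 at 9.71 CPM, above Control animal 3 at 8.94 CPM. The mean was 13.9 ± 3.06 CPM (SD, n = 6) in Control and 6.18 ± 1.92 (SD, n = 6) in LOY kidneys, a log2 fold change of -1.16 ± 0.21 (SE), or 2.24-fold lower.

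**Figure D1:**
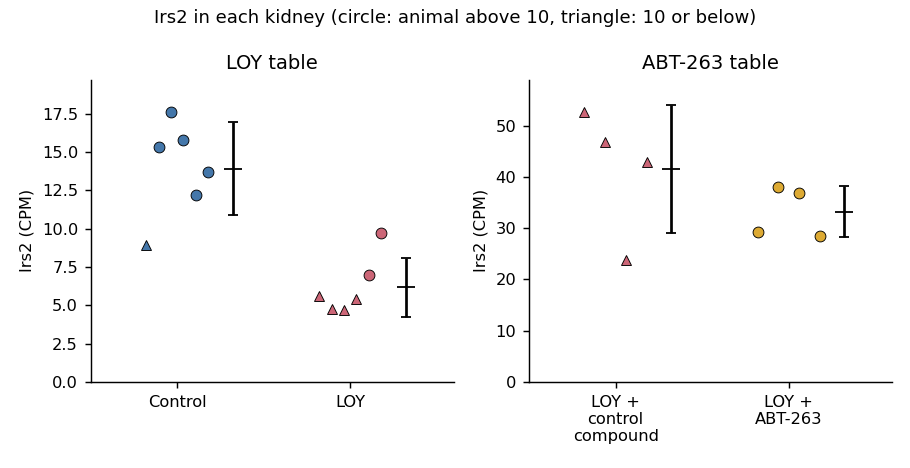
Irs2 in CPM (vertical axis, from 0) for each kidney of the LOY table (left) and the ABT-263 table (right), with 1 point per kidney (circles for animals numbered above 10, triangles for 10 or below) and the mean ± SD of each group as a bar. The LOY points lie at 4.68 to 9.71 CPM and the Control points at 8.94 to 17.6, with overlap only between LOY animal 18 and Control animal 3, and the ABT263 points (28.5 to 38.0) lie inside the range of the control compound (23.9 to 52.6).

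Across all genes, edgeR's quasi-likelihood test with Benjamini-Hochberg adjustment at 0.05 called 176 of 14978 genes, or 1.18%, of which 167 (1.11%) were higher and 9 (0.0601%) lower with LOY. Irs2 was among those 9, which is how it came to be chosen. Of the other 9 members 0 were called. Over all genes, 22.8% had an unadjusted p under 0.05. None of the 10 members was free of overlap between the groups, against 2.02% of all genes. The members' median log2 fold change was -0.33, with 8 values negative and 2 positive, beside a median of 0.02 over all genes. Irs2 was no longer called when Control animal 11, 12, 13, 16 or 17 or LOY animal 10 was left out, while its log2 fold change stayed between -1.36 and -1.10 over the 12 fits that each left out a kidney, in which the number of genes called ran from 0 to 607.

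The animal numbers were unevenly spread: 5 of 6 Control kidneys but 2 of 6 LOY kidneys came from animals numbered above 10, and what the numbers stand for was not given. Within each range Irs2 was lower with LOY and without overlap. Among animals numbered 10 or below, the single Control kidney had 8.94 CPM and the 4 LOY kidneys 4.68 to 5.61. Among those numbered above 10, 5 Control kidneys had 12.2 to 17.6 CPM and 2 LOY kidneys 6.96 to 9.71. The log2 ratios of the means were -0.81 and -0.84, both smaller in size than the pooled -1.16. Irs2 was picked on these same kidneys, so the lack of overlap is a description. Groups of 1 against 4 and of 5 against 2 kidneys separate easily. The share of all genes without overlap within each range was not counted, which also limits the ranges by animal number given for other members below.

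Libraries also differed in the balance of long against short transcripts, taken as the median log2 deviation of 6002 genes with over 5000 exon bases minus that of 1164 genes with under 1500. This balance was 0.180 to 0.285 in the 5 Control kidneys numbered above 10 and -0.174 in Control animal 3. It was 0.143 and 0.301 in the 2 LOY kidneys numbered above 10, between -0.295 and -0.008 in 3 of the other 4, and -1.09 in LOY animal 8. Irs2 has 6323 exon bases, and the 2754 genes within 1.2-fold of that length had a median log2 fold change of -0.04. With the balance as a term in the edgeR fit, the log2 fold change of Irs2 was -0.91. LOY animals 14 and 18, whose balance was like that of the Control kidneys, had Irs2 at 6.96 and 9.71 CPM.

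**Figure D2:**
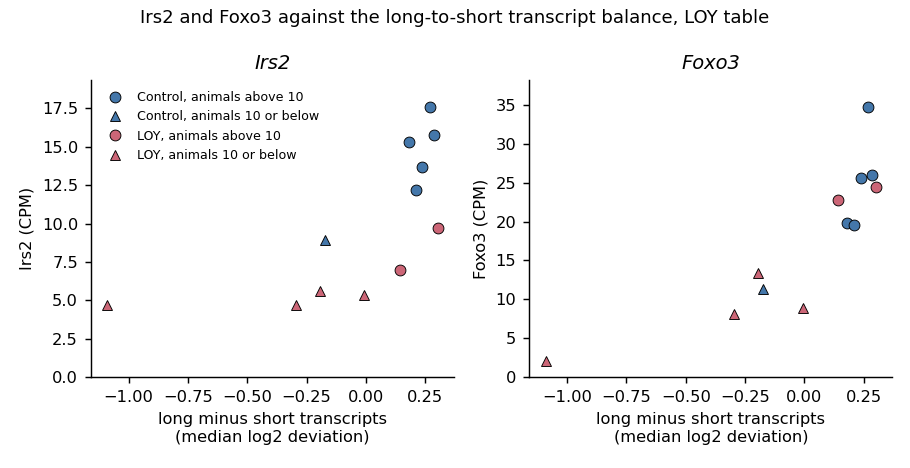
Level in CPM (vertical axis) against the balance of long over short transcripts of the same library (horizontal axis, log2) for Irs2 (left) and Foxo3 (right) in the 12 kidneys of the LOY table, with 1 point per kidney, coloured by group and shaped by animal number. Kidneys with a balance near or below 0 include 4 LOY kidneys and Control animal 3; LOY animal 8, at -1.09, has the lowest Foxo3 (2.07 CPM).

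Markers of other cells moved with the same grouping. Of 14 macrophage markers 8 rose and 0 fell in edgeR (median log2 fold change 1.04), with a summed level of 521 to 930 CPM in Control and 1048 to 1545 CPM in LOY kidneys. Of 9 T cell markers 4 rose (summed 11.4 to 16.3 against 24.0 to 41.2 CPM), and of 12 tubular injury markers 8 rose (summed 2081 to 3994 against 3942 to 9321 CPM). Of 20 proximal tubule markers 0 were called in edgeR, but 18 had negative values with a median of -0.49, and their sum was 47343 to 52500 against 32069 to 73364 CPM. Of 9 distal nephron markers 0 were called and 7 were negative (median -0.41). Their sum was 3948 CPM in Control animal 3 and 3859 to 4300 CPM in LOY kidneys numbered 10 or below. Above 10 it was 4551 to 8602 CPM in Control and 6915 to 7568 CPM in LOY kidneys. Adipose markers summed to 333 CPM in Control animal 3, against 24.6 to 48.1 CPM in the other Control kidneys, and that kidney was the lowest Control in 9 of the 10 members and the highest in Pck2. The part of these cells in the members' levels was not tested. As a check of the tissue label, all 20 proximal tubule markers, among them the endocytic receptor genes Lrp2 and Cubn, had counts in both groups. The 8 adrenal cortex markers summed to 4.81 to 11.8 CPM over all 12 kidneys, with Cyp11b2 at 0.

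Insr encodes the receptor and lies on the same chromosome at chr8:3122061-3279617 (minus strand). It measured 90.04 to 129.6 CPM in Control kidneys (median 119) and 75.0 to 113 CPM in LOY kidneys (median 94.9), which gives a log2 fold change of -0.32 ± 0.11 (SE). The groups overlapped, with 2 LOY kidneys below every Control kidney, and Control animal 3 was the low Control point. Among animals numbered above 10 the ranges of 115 to 129.6 and 98.2 to 113 CPM did not overlap, whereas among those numbered 10 or below they did.

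Irs1, the other adaptor gene (chr1:82233101-82291416, minus strand), differed less than Irs2. Control kidneys had 12.0 to 23.0 CPM (median 18.2) and LOY kidneys 6.73 to 17.8 CPM (median 14.9), with a log2 fold change of -0.34 ± 0.22 (SE). Only LOY animal 8, at 6.73 CPM, lay below the Control range. Among animals numbered 10 or below the log2 ratio of means was positive, at 0.17, and above 10 it was -0.29.

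The ratio of Irs2 to Irs1 counts within a library does not depend on scaling. It was 0.687 to 0.956 in the 6 Control kidneys and 0.309 to 0.705 in the 6 LOY kidneys. The highest LOY ratio belonged to animal 8, whose Irs1 was also low, and the other 5 lay below every Control kidney. The mean log2 ratio was -0.37 ± 0.17 (SD) in Control and -1.19 ± 0.48 (SD) in LOY kidneys, a difference of -0.81, which is a description because Irs2 was chosen on these kidneys.

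**Figure D3:**
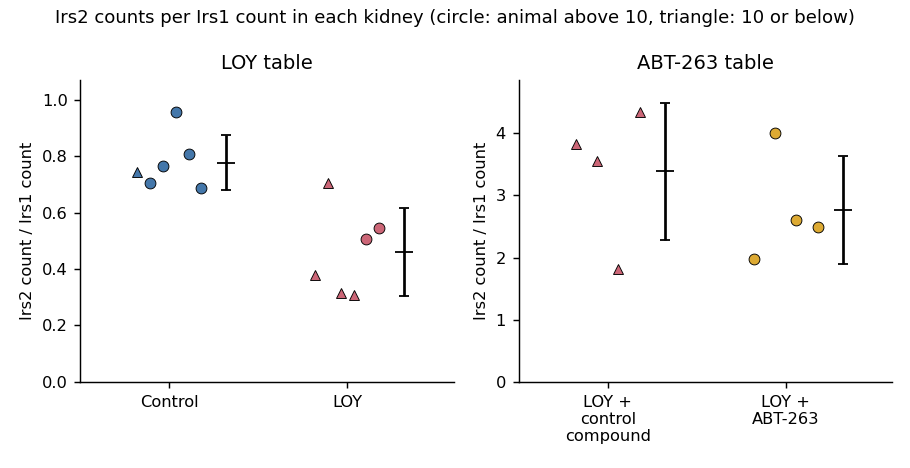
Ratio of Irs2 to Irs1 counts (vertical axis, from 0; prior count 0.5) for each kidney of the LOY table (left) and the ABT-263 table (right), with circles for animals numbered above 10, triangles for 10 or below, and the mean ± SD as a bar. Among the LOY and Control kidneys, 5 of 6 LOY kidneys lie at 0.309 to 0.547, below the Control range of 0.687 to 0.956; in the ABT-263 table both groups span about the same range, 1.82 to 4.34 with the control compound and 1.98 to 4.0 with ABT263.

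Pik3r1, the gene of the p85 regulatory subunit of phosphoinositide 3-kinase (chr13:101680563-101768217, minus strand), had similar means in both groups and a wider spread with LOY. Control kidneys had 64.5 to 84.1 CPM (median 78.1) and LOY kidneys 35.1 to 97.1 CPM (median 74.6), with 3 LOY kidneys below and 3 above the whole Control range. Its log2 fold change was -0.06 ± 0.20 (SE). The 3 high ones were LOY animals 10, 14 and 18. Among animals numbered above 10, Pik3r1 was higher with LOY and without overlap, opposite to Irs2, Insr and Fbp1. It was 67.6 to 84.1 CPM in Control and 85.4 to 96.5 CPM in LOY kidneys there, a log2 ratio of means of 0.22.

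Foxo1 (chr3:52268336-52353221, plus strand) and Foxo3 (chr10:42181841-42276755, minus strand) encode the transcription factors that insulin restrains. Foxo1 was 39.8 to 67.4 CPM in Control and 32.3 to 57.7 CPM in LOY kidneys, a log2 fold change of -0.28 ± 0.16 (SE). Foxo3 was 11.4 to 34.7 CPM in Control kidneys (median 22.7) and 2.07 to 24.4 CPM in LOY kidneys (median 11.2), a log2 fold change of -0.78 ± 0.42 (SE). LOY animals 8, 9 and 10 had the 3 lowest levels of all 12 kidneys. Among animals numbered above 10, Foxo3 was 19.6 to 34.7 CPM in Control and 22.7 to 24.4 CPM in LOY kidneys, a log2 ratio of means of -0.09.

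Pck1, the gene of cytosolic phosphoenolpyruvate carboxykinase (chr2:173153048-173159273, plus strand), was the member with the largest positive value. Control kidneys had 739 to 1916 CPM (median 1465) and LOY kidneys 1223 to 4370 CPM (median 1899). Of the LOY kidneys, animals 10 (4370 CPM), 8 (3834 CPM) and 9 (1971 CPM) exceeded every Control kidney, and the other 3 lay inside the Control range. The mean was 1419 ± 463 (SD, n = 6) against 2487 ± 1286 CPM (SD, n = 6), a log2 fold change of 0.81 ± 0.31 (SE). Without LOY animals 8 and 10 the log2 fold change was 0.23, and among animals numbered above 10 alone it was 0.18.

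G6pc encodes the catalytic subunit of glucose-6-phosphatase, which releases free glucose (chr11:101367561-101377903, plus strand). Control kidneys had 188 to 532 CPM (median 339.9) and LOY kidneys 42.2 to 353 CPM (median 173), a log2 fold change of -0.86 ± 0.39 (SE). LOY animals 8, 9 and 10, the 3 kidneys with the highest Pck1, had the 3 lowest G6pc levels, 42.2, 122 and 133 CPM. Among animals numbered above 10 the Control range of 284 to 532 CPM held both LOY kidneys (294 and 353 CPM).

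Fbp1 encodes fructose-1,6-bisphosphatase, the step before glucose 6-phosphate is formed (chr13:62864753-62888282, minus strand). It was 864 to 1229 CPM in Control kidneys (median 1111) and 481 to 958 CPM in LOY kidneys (median 850.3), a log2 fold change of -0.51 ± 0.19 (SE). Here 3 LOY kidneys lay below every Control kidney, animals 10 (481 CPM), 8 (493.4 CPM) and 18 (782 CPM). Among animals numbered above 10 the Control range of 972 to 1229 CPM and the LOY range of 782 to 919 CPM did not overlap. Pck2, the mitochondrial form of the carboxykinase (chr14:55540266-55551242, plus strand), was 24.1 to 34.4 CPM in Control and 29.0 to 51.4 CPM in LOY kidneys, a log2 fold change of 0.29 ± 0.15 (SE).

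**Figure D4:**
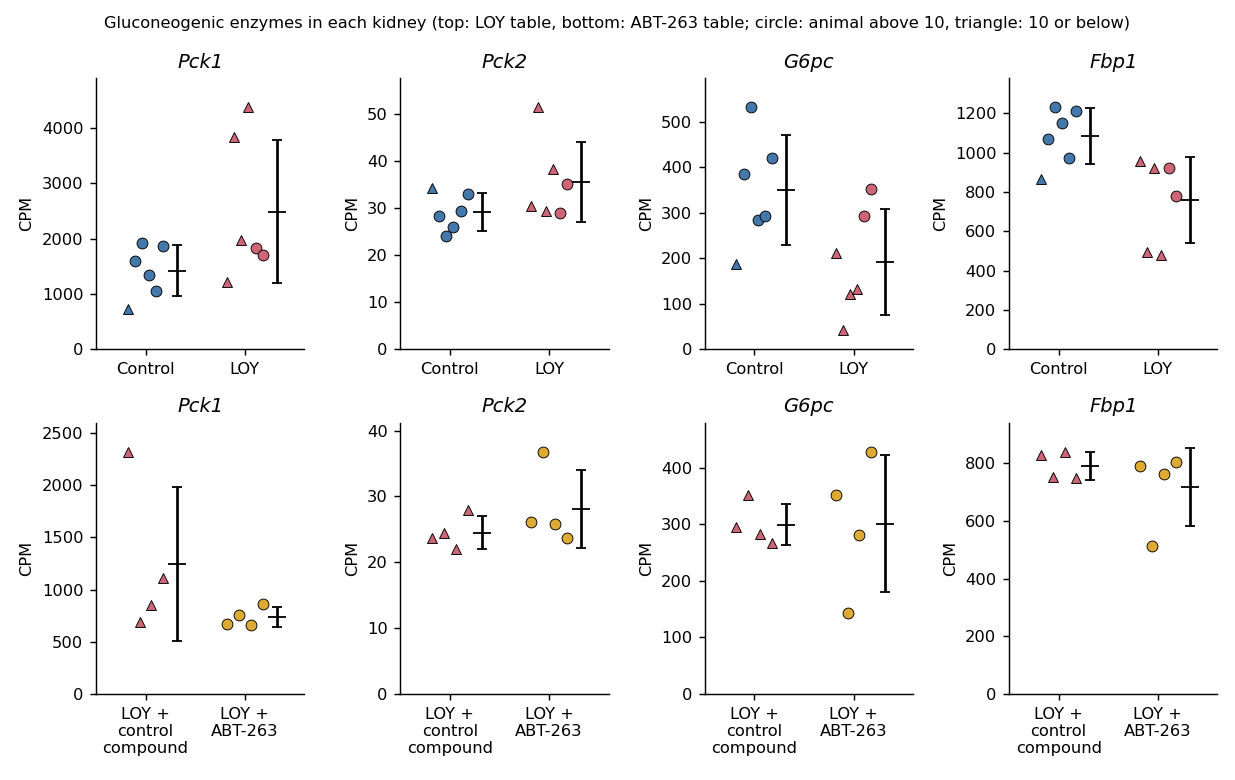
Pck1, Pck2, G6pc and Fbp1 in CPM (vertical axes) for each kidney of the LOY table (top) and the ABT-263 table (bottom), with circles for animals numbered above 10, triangles for 10 or below, and the mean ± SD per group as a bar. LOY animals 8 and 10 combine the highest Pck1 (3834 and 4370 CPM) with the lowest Fbp1 (493.4 and 481 CPM), and in the ABT-263 table control-compound animal 6 stands high in Pck1 (2319 CPM).

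Per kilobase of exon, Fbp1, Pck1 and G6pc stood far above the signalling genes in every group, while Pck2 lay below Insr, Pik3r1 and Foxo1. In Control kidneys the order was Fbp1 (636 ± 84.2 CPM per kb), Pck1 (414 ± 135), G6pc (145 ± 50.05), Insr (8.42), Pik3r1 (7.53), Foxo1 (6.26), Pck2 (3.74), Foxo3 (3.02), Irs2 (2.20 ± 0.48) and Irs1 (1.98 ± 0.46; SD, n = 6). Only after G6pc and after Foxo1 did neighbours in this order not overlap. In LOY kidneys Pck1 (725 ± 375 CPM per kb) stood before Fbp1 (446 ± 129), Pik3r1 (7.22) before Insr (6.74), and Irs1 (1.56) before Irs2 (0.98 ± 0.30), which was then last. Each of these 3 pairs overlapped in its kidneys. In the second table Foxo3 was the highest signalling gene, at 14.2 CPM per kb in both groups, and Irs1 the last, at 1.36 in both.

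The other genes of the pathway came from 8 lists with 113 genes that are no members, 110 of them tested in the first comparison. Of these 0 rose and 0 fell in edgeR at an adjusted p of 0.05, against 1.18% of all genes called. Their values were negative for 72 and positive for 38, with a median log2 fold change of -0.10 beside 0.02 over all genes. FOXO factors and targets had the lowest median (-0.21 over 16 genes, 14 negative), followed by ammonia formation (-0.16 over 8), regulators of gluconeogenesis (-0.15 over 19), PI3K, AKT and mTOR (-0.10 over 18) and gluconeogenesis (-0.10 over 20). Receptors and adaptors (-0.01 over 9), inhibitors of insulin signalling (-0.01 over 12) and glycolysis (0.07 over 14) lay near the median of all genes.

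Igfbp1, a secreted IGF-binding protein gene that FOXO factors drive and insulin represses, came nearest to the threshold. It averaged 11.3 ± 5.29 CPM (SD, n = 6) in Control and 3.54 ± 1.98 CPM (SD, n = 6) in LOY kidneys, with a log2 fold change of -1.66 ± 0.39 (SE; adjusted p = 0.0528 in edgeR). Socs3, a cytokine-induced inhibitor that can mark IRS proteins for degradation, averaged 4.63 ± 0.958 against 10.5 ± 5.59 CPM (adjusted p = 0.0634 in edgeR). DESeq2 called both, along with Pcx, Pik3ca and Slc7a8, so 5 of the 110 pathway genes. Of these 5, Socs3 was positive in edgeR and the others negative. Over all 14978 genes DESeq2 called 599 higher and 267 lower. Whether pathway genes were called more often than other genes was not tested. Pcx, the gene of pyruvate carboxylase at the entry to gluconeogenesis, measured 592 ± 114 against 408 ± 81.4 CPM, a log2 fold change of -0.54 ± 0.17 (adjusted p = 0.116 in edgeR). Pik3ca, a catalytic partner of the Pik3r1 product, had -0.34 ± 0.10 (adjusted p = 0.107), and Igf1r, the receptor gene nearest to Insr in kind, had -0.46 ± 0.18 (adjusted p = 0.168 in edgeR). Slc38a3, a glutamine transporter gene of ammonia formation, had 0.79 ± 0.30, positive like Pck1 (adjusted p = 0.169 in edgeR). Of the 8 genes tested on that list, 3 were positive and 5 negative. Among the negative ones were Slc7a8 (-0.63 ± 0.19, adjusted p = 0.112 in edgeR) and Slc9a3 (-0.83 ± 0.35, adjusted p = 0.192 in edgeR). Without Control animal 3 and LOY animal 8, whose balance of transcript lengths stood apart from the rest of their group, 13 of the pathway genes and 1121 of all genes were called.

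ABT-263 was compared with the control compound in the second table, where treatment and animal number (15 to 18 against 6 to 10) cannot be told apart. Of the 10 members 0 were called in edgeR at an adjusted p of 0.05, as were 0% of all 16956 genes, and 0 had an unadjusted p under 0.05 (5.91% of all genes, 1002, did). DESeq2 called 44 genes and voom 11, none of them a member. None of the members had groups without overlap, against 4.29% of all genes (2.25% lower and 2.04% higher with ABT-263). Their median log2 fold change was 0.01, with 6 positive and 4 negative values.

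Irs2 was 52.6, 46.8, 23.9 and 42.9 CPM in control-compound animals 6, 8, 9 and 10, and 29.3, 38.0, 36.9 and 28.5 CPM in ABT263 animals 15, 16, 17 and 18. The ABT263 kidneys all lay inside the range of the control compound, below 3 of its 4 kidneys. The means were 41.6 ± 12.5 and 33.2 ± 4.98 CPM (SD, n = 4 each), a log2 fold change of -0.32 ± 0.22 (SE) with a 95% interval of -0.81 to 0.16 (adjusted p = 0.854 in edgeR). The mean log2 ratio of Irs2 to Irs1 was 1.69 ± 0.56 (SD) with the control compound and 1.42 ± 0.42 (SD) with ABT263. That difference of -0.26 was within the spread between kidneys (exact two-sided permutation test over 70 splits, p = 0.514, the smallest possible being 0.0286).

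Pck1, positive with LOY, had the lowest ABT-263 value of the members. Control-compound animals 6, 8, 9 and 10 had 2319, 687, 855 and 1106 CPM, and ABT263 animals 15, 16, 17 and 18 had 671, 753, 657 and 862 CPM. The log2 fold change was -0.75 ± 0.35 (SE; 95% interval -1.56 to 0.05; adjusted p = 0.827 in edgeR). It rested largely on animal 6: without that kidney the log2 fold change was -0.26.

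The log2 fold changes of the other members with ABT-263 lay between -0.14 (Fbp1) and 0.20 (Pck2). Pck2 had 23.7, 24.5, 22.0 and 27.9 CPM with the control compound and 26.1, 36.8, 25.9 and 23.7 CPM with ABT263, with overlap and a high point in animal 16. Its log2 fold change was 0.20 ± 0.14 (SE; 95% interval -0.12 to 0.51; adjusted p = 0.857 in edgeR). Pik3r1 had a log2 fold change of 0.07 ± 0.11 (SE; 95% interval -0.16 to 0.31; adjusted p = 0.942 in edgeR). Insr had 137, 134, 129 and 129.7 CPM with the control compound and 136, 149, 139.5 and 139.5 CPM with ABT263, a log2 fold change of 0.09 ± 0.07 (SE; 95% interval -0.06 to 0.24; adjusted p = 0.861 in edgeR). Foxo3 averaged 107 ± 21 and 108 ± 9.89 CPM, and Foxo1 52.0 ± 7.37 and 54.8 ± 3.35 CPM (SD, n = 4 each). G6pc averaged 299.7 ± 36.7 and 301 ± 121 CPM, with the lowest (144 CPM, animal 16) and the highest (428 CPM, animal 18) of all 8 kidneys in the ABT263 group. Fbp1 was lowest in the same animal 16, at 515 CPM, against 748 to 840 CPM in the other 7 kidneys. Irs1 averaged 12.5 CPM in both groups, with a log2 fold change of 0.00 ± 0.17 and a 95% interval of -0.38 to 0.38.

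**Figure D5:**
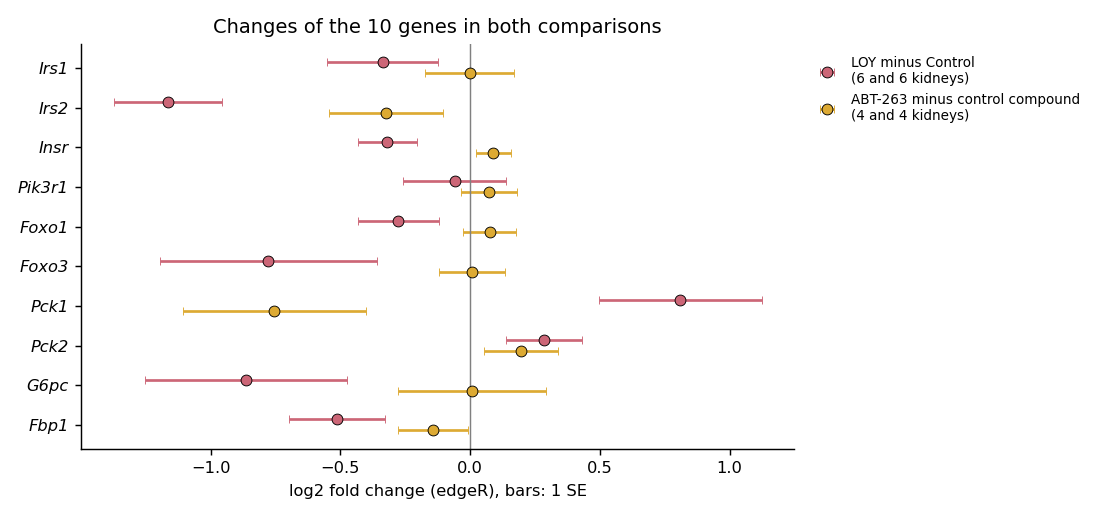
Log2 fold change (horizontal axis; point, with a bar of 1 SE either side, from edgeR) of each of the 10 members (vertical axis) for LOY minus Control (6 and 6 kidneys) and for ABT-263 minus control compound (4 and 4 kidneys). Irs2 lies at -1.16 with LOY and -0.32 with ABT-263, and Pck1 at 0.81 and -0.75.

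Cell markers also moved in the second table without passing the test. Of 14 macrophage markers 13 were negative (median log2 fold change -0.42), with a summed level of 954 to 1535 CPM with the control compound and 847 to 939 CPM with ABT263. Of 9 adipose markers tested all 9 were positive (median 1.5), summing to 16.5 to 115 against 15.6 to 337 CPM. All 10 T cell markers were negative as well (median -0.49), summing to 14.8 to 35.7 against 13.4 to 18.6 CPM. Tubular injury markers summed to 2960 to 4408 CPM with the control compound, to 21596 CPM in ABT263 animal 16 and to 2055 to 2847 CPM in the other ABT263 kidneys, below every control-compound kidney. Animal 16 also had the lowest proximal tubule sum (21346 CPM, against 23832 to 35572 CPM in the other kidneys), and it is the kidney with the lowest G6pc and Fbp1. The part of these cells in the members' values was not tested. The balance of long against short transcripts was narrow here, from -0.098 to 0.048.

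Among the 109 pathway genes tested in the second table, 0 rose and 0 fell in edgeR, with 61 positive, 48 negative and a median of 0.02. Bcl6, a transcriptional repressor gene listed among FOXO targets, averaged 21 ± 3.66 CPM with the control compound and 85.7 ± 29.1 CPM with ABT263 (SD, n = 4 each). Its log2 fold change was 2.03 ± 0.25 with an adjusted p of 0.265 in edgeR, while DESeq2 called it. Igfbp1 (-0.08 ± 0.80), Socs3 (-0.30 ± 0.42) and Pcx (0.08) had values near 0 or a wide error. Igfbp1 spread over 2.47 to 25.2 CPM with the control compound and 6.00 to 9.47 CPM with ABT263. Without control-compound animal 6, Igfbp1 was called in edgeR, where 5 of all genes were called higher and 4 lower. Without that animal and ABT263 animal 16 it was called again, among 213 genes higher and 175 lower.

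The genes most like Irs2 over the 12 kidneys of the first table, by Pearson r of log2 CPM among 14395 genes, were Lrpprc (0.953), Mtmr10 (0.950), Bahcc1 (0.948), Bcar3 (0.944), Kazn (0.944) and Slc45a4 (0.943). Over the 8 kidneys of the second table the r of these genes with Irs2 was -0.526, 0.235, -0.023, -0.333, 0.301 and 0.481, in the same order. By deviations from the group means, which leave out the group difference, the 6 nearest were Pde1a (0.968), Deptor (0.961), Xpo4 (0.960), Pitrm1 (0.954), C2 (0.951) and Lpp (0.951). In the second table their r by deviations was 0.101, 0.566, 0.118, -0.217, 0.575 and 0.197, in the same order. These points share their libraries and so their depth and their balance of transcript lengths, and the values are a description.

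Among the members, the likeness to Irs2 over the 12 kidneys ran from Insr (0.912), G6pc (0.810), Foxo3 (0.775), Fbp1 (0.729) and Foxo1 (0.722) through Irs1 (0.644) and Pik3r1 (0.473) to Pck1 (-0.426) and Pck2 (-0.614). These values, of log2 CPM, include the group difference on which Irs2 was picked. With deviations from group means instead, r was 0.896 for Insr, 0.780 for G6pc, 0.772 for Foxo3 and 0.736 for Foxo1. It was 0.651 for Pik3r1, 0.625 for Irs1, 0.433 for Fbp1, 0.091 for Pck1 and -0.446 for Pck2. By deviations from group means, 32 of 45 member pairs were positive in the first table with a median r of 0.59, and Foxo3 with G6pc reached 0.97. Among the 8 kidneys of the second table, 22 of 45 pairs were positive with a median of 0.00. Insr and Irs2 had an r of 0.647 by deviations there, against 0.896 in the first table. By log2 CPM their r was 0.145 in the second table, against 0.912 in the first.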

How the data were processed

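Kidney RNA of each animal was sequenced as a total RNA library on an Illumina NovaSeq X, as the labels' protocols state. The authors deposited whole-number gene counts, with mm10 named as the genome build in the submitters' processing notes. The aligner, counter and annotation were not given, nor was the use of strand, so reads of overlapping and antisense genes cannot be told apart. Between 0.223% and 0.401% of the counts in the LOY table had no gene and were left out.

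Groups followed the labels. The main test on the deposited counts was edgeR's robust quasi-likelihood F test (edgeR 4.0.16, R 4.3.3) after TMM scaling and filterByExpr, whose count minimum was 10 and total minimum 15. Adjustment was Benjamini-Hochberg over all genes, at 0.05. SE was computed by dividing the absolute log2 fold change by the root of F, and 95% intervals use the t distribution of that fit. Log2 CPM have a prior count of 2. Alternatives were DESeq2 1.42.0, limma 3.58.1 (voom with quality weights), other scalings and filters, and left-out kidneys. The code was tested on simulated data. Positions and exon lengths are from GENCODE M21 (GRCm38), promoters from RefSeq (GRCm38.p6).

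The members and lists were chosen with earlier results of these data known. All members are named. From the lists, up to 3 further genes with the smallest p were eligible to be named, and by each measure the 6 genes most like Irs2.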

Additional observations from a re-analysis of the deposited data

Results flagged for a closer look

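In groups of 4 to 6 kidneys, a kidney is listed here when its gap to the nearest other kidney takes up more of the group's range than Dixon's 95% limit. Of 44 groups of values examined, 5 held such a kidney, where chance gives about 1 in 20. LOY animal 8 was low in Irs1, at 6.73 CPM. Control animal 3 was low in Insr, at 90.04 CPM. Control-compound animal 10 was low in Irs1, at 9.87 CPM, and control-compound animal 6 was high in Foxo1, at 62.9 CPM. ABT263 animal 16 was low in Fbp1, at 515 CPM.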

How the results depend on the processing

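No paired analysis was possible because the groups compared share no animal number. Irs2 was lower with LOY in all 25 alternatives (-1.36 to -0.82). Its log2 fold change was -0.83 in animals numbered above 10 alone. In animals numbered 10 or below alone it was -0.82, a fit with a single Control kidney, for which no call is given. With a term for animals numbered above 10 or not, it was -0.82, and with the length balance as a term it was -0.91. The call of Irs2 was lost with the term for animals numbered above 10 or not and without LOY animals 8 and 10. It was also lost without LOY animal 10 or Control animal 11, 12, 13, 16 or 17. The cause was not tested.

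The 176 genes called with LOY became 105 with library totals alone, 866 with DESeq2, 1062 with voom, 451 in animals numbered above 10 alone, 29 without LOY animals 8 and 10, 1121 without Control animal 3 and LOY animal 8, and 549 at an adjusted p of 0.1. They were 0 with the term for animals numbered above 10 or not (1194 at an unadjusted p under 0.05). Leaving out 1 kidney gave 0 to 607. The highest count was without Control animal 3, and without Control animals 11, 12, 13, 16 and 17 it was 3, 2, 9, 0 and 0 (2870 and 2611 at an unadjusted p under 0.05 for the last pair). Without LOY animals 9, 10, 14 and 18 it was 96, 1, 116 and 296. Of the other members 1, Insr, was called with voom and 1, again Insr, without Control animal 3 and LOY animal 8. Of the pathway genes that are no members, none called in edgeR, 5 were called with DESeq2, 12 with voom, 1 in animals numbered above 10 alone, 1 with the length balance as a term, 13 without Control animal 3 and LOY animal 8, 2 at an adjusted p of 0.1, and 0 to 4 when 1 kidney was left out, 4 without Control animal 3. Pck1 with LOY ranged from 0.18 (animals numbered above 10 alone) to 1.94 (10 or below alone). Irs1 turned positive there, at 0.16.

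With ABT-263, 0 members were called in all 19 alternatives, and Irs2 was negative in all 18 with a value (-0.51 to -0.19; adjusted p 0.350 to 0.999 over edgeR, DESeq2 and voom). The 0 genes called became 44 with DESeq2, 11 with voom, 388 without control-compound animal 6 and ABT263 animal 16, 8 without control-compound animals 6 and 9, and 0 to 9 when 1 kidney was left out. Pathway genes went from 0 to 1 with DESeq2, 4 without control-compound animal 6 and ABT263 animal 16, and 0 to 1 when 1 kidney was left out. Members near 0 changed sign. Irs1 was 0.019 with upper-quartile scaling, 0.016 with library totals alone, 0.0040 with a mean of at least 1 CPM, 0.12 with voom, 0.16 without control-compound animal 6 and ABT263 animal 16, 0.11 without control-compound animals 6 and 9, and -0.10 to 0.11 when 1 kidney was left out. Pik3r1 was -0.041 with voom, -0.083 without control-compound animal 6 and ABT263 animal 16, and -0.043 to 0.13 when 1 kidney was left out. Foxo3 ran from -0.063 to 0.15 and G6pc from -0.21 to 0.24 in those fits. G6pc was -0.041 without control-compound animals 6 and 9, and Fbp1 was 0.011 without control-compound animal 6 and ABT263 animal 16. The Irs2 to Irs1 log2 ratio differed by -0.54 to -0.12 when 1 kidney was left out and by -0.27 with a prior count of 5 (exact permutation p = 0.486). The causes were not tested.

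Irs2 rested on 64 to 241 counts per kidney in the LOY table.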
